A study of Homo sapiens with 59 samples.

Results

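The mitosis genes described here are 34 protein-coding human genes whose products act from late G2 phase to cytokinesis, some of them (such as CCNA2) also in S phase. They were chosen by symbol, as genes of mitosis, when earlier results of these data were known. The rule itself uses no measured value. All 34 were found among the 60675 genes measured, and all 34 were among the 18568 genes with enough reads to be tested. The 6 genes for cyclins, CDK1 and CDC25 phosphatases are CCNA2, CCNB1, CCNB2, CDK1, CDC25B and CDC25C. The 6 mitotic kinases are AURKA, PLK1, NEK2, TTK, BUB1 and BUB1B, and the 4 members of the chromosomal passenger complex are AURKB, INCENP, BIRC5 and CDCA8. The 3 genes around the anaphase-promoting complex are CDC20, UBE2C and PTTG1, and the 5 kinesins are KIF11, KIF20A, KIF23, KIF2C and CENPE. The 6 spindle microtubule proteins are TPX2, NUSAP1, PRC1, HMMR, DLGAP5 and ASPM, and the 4 centromere and chromosome proteins are CENPA, CENPF, TOP2A and MKI67. The 59 libraries, in 25 groups, came from A549, an established human lung carcinoma line.

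Every group was harvested after 24 h with a 70% ethanol extract of a herbal medicine, or with the vehicle, dimethyl sulfoxide (3 libraries). The concentration of dimethyl sulfoxide is given as 0.1% in the sample labels and as 2% in the text on the series. The high, medium and low dose were 110, 22 and 4.4 µg/mL for Coptidis Rhizoma. For Bupleuri Radix they were 190, 38 and 7.6 µg/mL. All other preparations were given at 500, 100 and 20 µg/mL. These were Aconiti Lateralis Radix Preparata, Cimicifugae Rhizoma, Citri Unshius Pericarpium and Zizyphi Fructus, each 1 medicine, and the formulas Banhasasim-tang and Yijung-tang. There were 2 libraries for each dose of Coptidis Rhizoma, Zizyphi Fructus and Yijung-tang and for the medium dose of Aconiti Lateralis Radix Preparata. Banhasasim-tang had 1 library for each dose, and the remaining groups had 3. The labels place the extracts under 4 set codes (11 to 14) and the vehicle under a code of its own. The titles of all samples, vehicle and extracts alike, also carry the same words, Second BatchD, which the labels do not explain. In a comparison with vehicle, an effect shared by the extracts of a set cannot be told apart from a difference between the sets. The labels do not say that replicates came from separate cultures, so the p-values measure only the spread between these libraries.

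Entry into mitosis is driven by CDK1 bound to cyclin B. CDC25 phosphatases remove the inhibitory phosphates of CDK1, Aurora and Polo-like kinases build and orient the spindle, and the anaphase-promoting complex ends the phase by marking securin and cyclin B for destruction. The RNAs of many of these genes rise together late in the cell cycle, through the MuvB core with B-MYB and FOXM1 at a promoter element called CHR and through NF-Y at CCAAT boxes. The same genes are repressed together by the DREAM complex when p53 and p21 are active. A549 cells carry wild-type p53 and lack CDKN2A. In bulk RNA, fewer dividing cells and less of these RNAs in each dividing cell cannot be told apart.

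The promoter sequences of 4 members are shown because these genes mark the range of the results described further on: INCENP had the lowest log2 fold change of all members with the high dose of Coptidis Rhizoma, PLK1 and CCNB1 are central regulators, and CDC25B had the log2 fold change nearest to 0. Each stretch runs 5′ to 3′ on the gene's strand from 170 bases before the RefSeq transcription start to 30 bases after it, in the build GRCh38.p14. Capitals mark the letters of the CHR motif (TTTGAA, or TTCAAA on the other strand) and of the CCAAT box (CCAAT, or ATTGG on the other strand). The stretches lie at chr11:62123841-62124040 (INCENP), chr16:23678719-23678918 (PLK1), chr5:69166980-69167179 (CCNB1) and chr20:3786781-3786980 (CDC25B), all on the plus strand.
INCENP: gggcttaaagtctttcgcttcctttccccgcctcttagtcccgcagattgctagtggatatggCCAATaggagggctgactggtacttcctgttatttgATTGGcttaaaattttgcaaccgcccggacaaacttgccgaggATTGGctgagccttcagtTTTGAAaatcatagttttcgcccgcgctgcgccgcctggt
PLK1: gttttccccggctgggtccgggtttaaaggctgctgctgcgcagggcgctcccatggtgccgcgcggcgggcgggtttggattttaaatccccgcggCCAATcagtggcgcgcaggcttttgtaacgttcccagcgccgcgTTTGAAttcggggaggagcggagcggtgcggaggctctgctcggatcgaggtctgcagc
CCNB1: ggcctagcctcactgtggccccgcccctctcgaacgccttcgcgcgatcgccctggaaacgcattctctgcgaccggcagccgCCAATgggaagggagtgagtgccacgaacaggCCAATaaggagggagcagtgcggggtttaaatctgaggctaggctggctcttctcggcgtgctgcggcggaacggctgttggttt
CDC25B: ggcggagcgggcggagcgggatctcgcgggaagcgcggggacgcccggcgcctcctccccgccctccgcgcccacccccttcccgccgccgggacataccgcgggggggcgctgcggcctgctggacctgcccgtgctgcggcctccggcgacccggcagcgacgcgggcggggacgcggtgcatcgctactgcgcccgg
INCENP showed 1 CHR motif and 3 CCAAT boxes in this stretch, and PLK1 showed 1 of each. CCNB1 showed 2 CCAAT boxes and no CHR letters, and CDC25B showed neither.

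RefSeq promoters of 300 bases (250 before the start to 50 after it) were at hand for 29 of the 34 members, and not for AURKA, TTK, BIRC5, UBE2C and TPX2. The CHR letters stood in 18 of the 29 (62.1%), against 15.4% of 27305 promoters of the same length. A CCAAT box on either strand stood in 24 of the 29 (82.8%, against 35.7% of all promoters), and 17 of the 29 held 2 or more (58.6%, against 11.3%). The members with both motifs were 17 (58.6%, against 6.08% of all promoters). The members without the CHR letters were CCNA2, CCNB1, CDC25B, CDC25C, NEK2, BUB1, AURKB, PTTG1, KIF20A, KIF2C and CENPE. The motifs do not overlap in their letters, and a match describes the letters only.

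The libraries held 17214755 to 39751161 expected counts, and the member with the fewest reads, CDC25C, had at least 204 in every library. The A549 markers all passed the low-count filter (9 of 9). Of 17 markers of other cell types 7 passed it, 10 stayed below 1 CPM (counts scaled by library size) in every library, and CD3E and INS were at 0 throughout. Their summed level was 205 to 216 CPM in the vehicle libraries and 148 to 238 CPM over all libraries. Most of it came from TUBB3 (mean 165 CPM with vehicle) and COL1A1 (33.2 CPM), so the sum says little about the other markers. CPM of markers and of antisense genes are scaled by all counts, without the TMM scaling used for the members. They therefore also depend on the share of mitochondrial rRNA. Mitochondrial rRNA took 2.24% to 2.43% of the counts with vehicle, 6.09% to 11.1% in the 6 Coptidis Rhizoma libraries, and 3.87%, 11.5% and 15.2% at the low, medium and high dose of Banhasasim-tang. Genes annotated as antisense took 2762 to 2806 CPM with vehicle and 3149 to 4601 CPM in 4 libraries, namely replicate 3 of high-dose and of medium-dose Citri Unshius Pericarpium and replicate 2 of medium-dose and of low-dose Cimicifugae Rhizoma. These are called the high-antisense libraries here, and they were chosen from earlier work on these data. Both high-dose Coptidis Rhizoma libraries, at 3133 and 3137 CPM, came close to the lowest of them, and the other 50 libraries of extracts had 2375 to 3008 CPM. All groups share 1 estimate of the spread, which includes them, and counts of genes called are also given without them where they differ.

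Over the 34 members, the median log2 ratio to the vehicle mean in single libraries ran from -0.66 in a high-dose Coptidis Rhizoma library to 0.14 in a medium-dose Citri Unshius Pericarpium library. The vehicle libraries lay at -0.0039, 0.0072 and 0.012. The medians of the Coptidis Rhizoma libraries were -0.16 and -0.15 at the low dose, -0.31 and -0.35 at the medium dose, and -0.65 and -0.66 at the high dose. These 3 doses did not overlap each other or the vehicle. The median was -0.62 in the single high-dose Banhasasim-tang library, -0.37 and -0.43 in the medium-dose Aconiti Lateralis Radix Preparata libraries, and -0.30 and -0.26 in the high-dose Yijung-tang libraries. The Zizyphi Fructus libraries lay between -0.02 and 0.08, around the vehicle level.

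**Figure D1:**
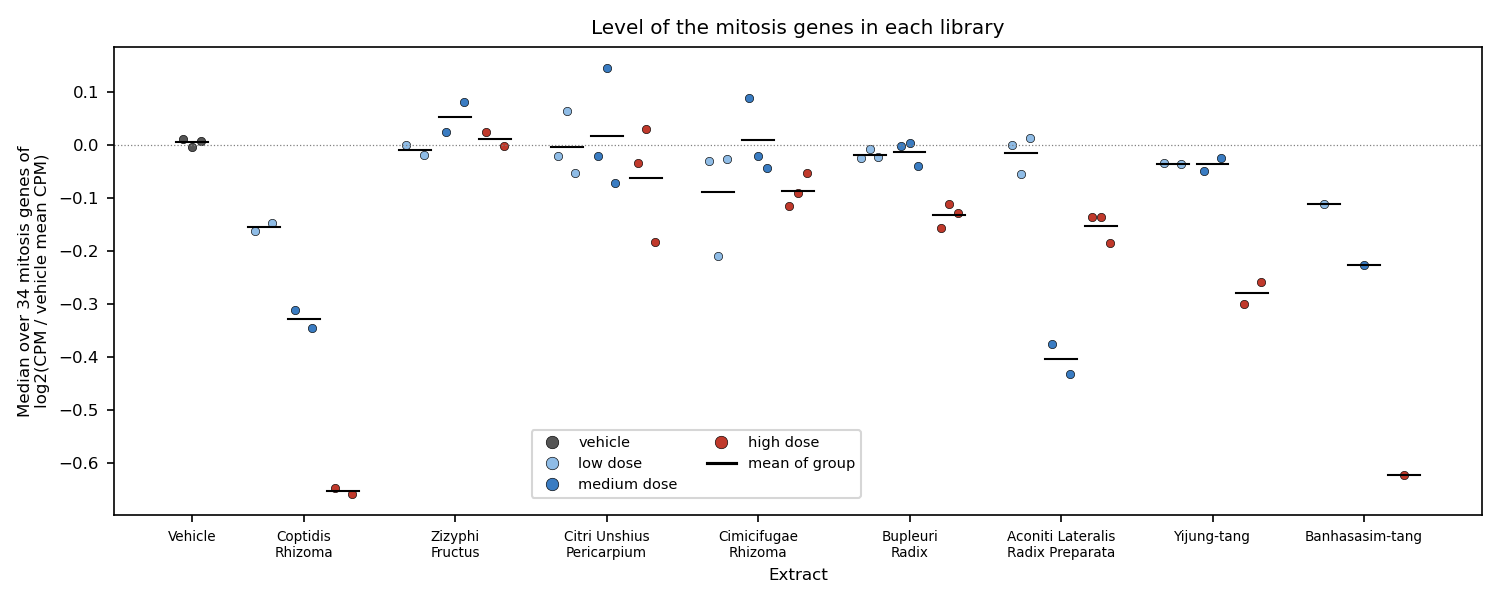
Each point is 1 library, plotted at the median over the 34 mitosis genes of log2(CPM / vehicle mean CPM) on the y axis, by extract on the x axis, with colours for the dose and a bar at the mean of each group. The high-dose Coptidis Rhizoma libraries lie at -0.65 and -0.66 and the high-dose Banhasasim-tang library at -0.62, while the vehicle libraries lie between -0.0039 and 0.012.

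With the high dose of Coptidis Rhizoma, 30 of the 34 mitosis genes fell against vehicle and none rose, at a Benjamini-Hochberg adjusted p below 0.05 in edgeR's quasi-likelihood test. In that comparison 6.14% of all genes tested fell and 6.41% rose. The median log2 fold change of the members was -0.65, and that of all genes was -0.0067. All 34 members had both treated libraries below every vehicle library, as had 29.5% of all genes. With the 4 high-antisense libraries left out, all 34 fell, against 13.8% of all genes. Leaving out single libraries gave 23 to 29 members called. The part that mitochondrial rRNA has in these differences was not tested. Its share was 9.13% to 11.1% at the medium and low dose, and 6.09% and 6.42% at the high dose. The summed markers of other cell types were 161 and 166 CPM in the high-dose libraries, below the vehicle range, and their part was not tested. Genes annotated as antisense, at 3133 and 3137 CPM there, were above the vehicle range of 2762 to 2806 CPM, and their part was not tested either.

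Among the cyclins, CDK1 and CDC25 phosphatases, 5 of 6 fell with high-dose Coptidis Rhizoma. CCNB1, the cyclin that activates CDK1 at mitotic entry, was measured at 234, 236 and 242 CPM with vehicle, 184 and 194 at the low dose, 173 and 167 at the medium dose and 147 and 141 at the high dose. Every step down in dose was a step up in level, with no overlap between the groups. CDK1, the kinase itself, had 145, 156 and 153 CPM with vehicle, 125 and 127 at the low, 109 and 109.8 at the medium and 87.0 and 89.0 at the high dose. Its log2 fold change at the high dose was -0.78 ± 0.11 (SE; edgeR adjusted p = 3.17e-06). The groups did not overlap here either. CCNA2, the cyclin of S phase and G2, and CCNB2, the other B-type cyclin, fell by 0.70 ± 0.13 and 0.69 ± 0.10 (edgeR adjusted p = 0.000143 and 1.7e-06). The phosphatases differed from each other. CDC25C fell by 0.64 ± 0.14 (edgeR adjusted p = 0.00114), from 14.6, 15.9 and 15.9 CPM to 9.53 and 10.3 CPM. CDC25B had 298, 301 and 307 CPM with vehicle and 268 and 263 CPM at the high dose, and its log2 fold change of -0.19 ± 0.10 was not called (edgeR adjusted p = 0.244). At the low dose CDC25B was above every vehicle library, at 313 and 322 CPM.

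Of the mitotic kinases 5 of 6 fell, with a median log2 fold change of -0.55. AURKA, the Aurora kinase of the spindle poles, had 171, 172 and 165 CPM with vehicle, 143 and 141 at the low, 126 and 115 at the medium and 102 and 95.8 at the high dose. PLK1, the Polo-like kinase of mitotic entry and spindle assembly, had 203, 196 and 202 CPM with vehicle and 181 and 171, 151 and 153, and 111 and 118 CPM at the 3 rising doses, and its log2 fold change at the high dose was -0.81 ± 0.14 (edgeR adjusted p = 3.1e-05). Both kinases kept the order of the doses in all their libraries. NEK2, a kinase of centrosome separation, and TTK, the upstream kinase of the spindle checkpoint, fell by 0.56 ± 0.079 and 0.54 ± 0.13 (edgeR adjusted p = 1.59e-06 and 0.004). The checkpoint kinases BUB1 and BUB1B had the smallest log2 fold changes of this group. BUB1 had 120.1, 124 and 117 CPM with vehicle and 88.2 and 86.3 CPM at the high dose, a log2 fold change of -0.47 ± 0.17 that was not called (edgeR adjusted p = 0.0693). BUB1B fell by 0.33 ± 0.091 (edgeR adjusted p = 0.0121). BUB1 was called without the 4 high-antisense libraries (log2 fold change -0.45 ± 0.061, edgeR adjusted p = 3.2e-07).

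The chromosomal passenger complex, which corrects faulty attachments of chromosomes to the spindle and later directs cytokinesis, had all 4 members lower and the lowest group median, -0.85. INCENP, its scaffold, lies on chromosome 11 (62123973 to 62153163, plus strand, GRCh38). It had 91.2, 85.7 and 83.5 CPM with vehicle, 71.2 and 67.6 at the low, 54.6 and 65.0 at the medium and 46.5 and 44.2 at the high dose. No library of 1 dose reached into the range of another. The log2 fold change at the high dose was -0.94 ± 0.15 (edgeR adjusted p = 1.3e-05). BIRC5 (survivin) had 226, 208 and 220.4 CPM with vehicle and 117 and 115 CPM at the high dose, and fell by 0.91 ± 0.20 (edgeR adjusted p = 0.00111). CDCA8 (borealin) fell by 0.80 ± 0.087 and AURKB, the kinase of the complex, by 0.67 ± 0.14 (edgeR adjusted p = 8.69e-09 and 0.00105).

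The 3 genes around the anaphase-promoting complex all fell. UBE2C, the E2 enzyme that starts ubiquitin chains for the complex, had 92.4, 91.2 and 96.6 CPM with vehicle, 75.9 and 78.2 at the low, 67.0 and 70.0 at the medium and 53.8 and 57.0 at the high dose. CDC20, the activator that the spindle checkpoint holds back, had 178, 172 and 179 CPM with vehicle and 161 and 154, 161 and 150.5, and 128 and 119.5 CPM at the 3 rising doses. The low-dose and medium-dose values of CDC20 overlapped each other, and only the high dose stood apart from both (log2 fold change -0.51 ± 0.12 against vehicle, edgeR adjusted p = 0.00352). PTTG1 (securin), the inhibitor of separase, fell by 0.80 ± 0.25 (edgeR adjusted p = 0.0257).

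All 5 kinesins fell, and KIF20A, a motor of the central spindle, fell most among them. KIF20A had 82.3, 77.5 and 75.7 CPM with vehicle, 66.4 and 70.5 at the low, 59.2 and 57.0 at the medium and 42.1 and 40.2 at the high dose. The high-dose log2 fold change was -0.93 ± 0.18 (edgeR adjusted p = 0.000182), which leaves 0.52 of the vehicle level. KIF23, the motor of the centralspindlin complex, fell from 167, 171 and 162 CPM with vehicle to 122 and 119.8 CPM (log2 fold change -0.46 ± 0.065, edgeR adjusted p = 1.85e-06). KIF11, which pushes the spindle poles apart, KIF2C, a microtubule depolymerase at centromeres, and CENPE, the motor that moves chromosomes to the spindle equator, fell by 0.74 ± 0.11, 0.60 ± 0.082 and 0.48 ± 0.14.

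Of the spindle microtubule proteins 5 of 6 fell. TPX2, which activates AURKA on spindle microtubules, had 271, 266 and 262 CPM with vehicle, 247 and 244 at the low, 217 and 219 at the medium and 190.1 and 185 at the high dose. DLGAP5, a protein of kinetochore microtubules, had 83.9, 82.5 and 83.2 CPM with vehicle and 45.1 and 44.5 CPM at the high dose, and fell by 0.89 ± 0.10 (edgeR adjusted p = 2.07e-08). Neither gene had a treated library within the vehicle range at any of the 3 doses. NUSAP1, PRC1 and HMMR fell by 0.66 ± 0.13, 0.49 ± 0.10 and 0.48 ± 0.076. ASPM, a spindle pole protein, had 162, 151 and 129.9 CPM with vehicle and 105 and 105 CPM at the high dose. Its log2 fold change of -0.49 ± 0.26 was not called (edgeR adjusted p = 0.236), and was called without the 4 high-antisense libraries (-0.48 ± 0.13, edgeR adjusted p = 0.00508).

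Of the centromere and chromosome proteins 3 of 4 fell. TOP2A, which untangles sister chromatids, had 1073, 1065 and 982 CPM with vehicle, 924 and 923 at the low, 837 and 845 at the medium and 692 and 676 at the high dose. MKI67, the Ki-67 antigen that coats mitotic chromosomes, had 559.8, 508 and 436 CPM with vehicle and 448 and 458, 386 and 418, and 285 and 290.1 CPM at the 3 rising doses. The vehicle libraries were further apart for MKI67 than for TOP2A, and the low dose of MKI67 lay within the vehicle range. CENPF, a protein of the outer kinetochore, had 301, 284 and 242 CPM with vehicle and 235 and 252, 210.2 and 218, and 184 and 172 CPM at the rising doses. Its low-dose values overlapped the vehicle and its medium and high doses did not. CENPA, the centromeric histone, had 33.4, 36.0 and 38.4 CPM with vehicle and 27.1 and 25.7 CPM at the high dose, a log2 fold change of -0.44 ± 0.17 that was not called (edgeR adjusted p = 0.0839). Once the high-antisense libraries were omitted, it was called (-0.42 ± 0.11, edgeR adjusted p = 0.00424).

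**Figure D2:**
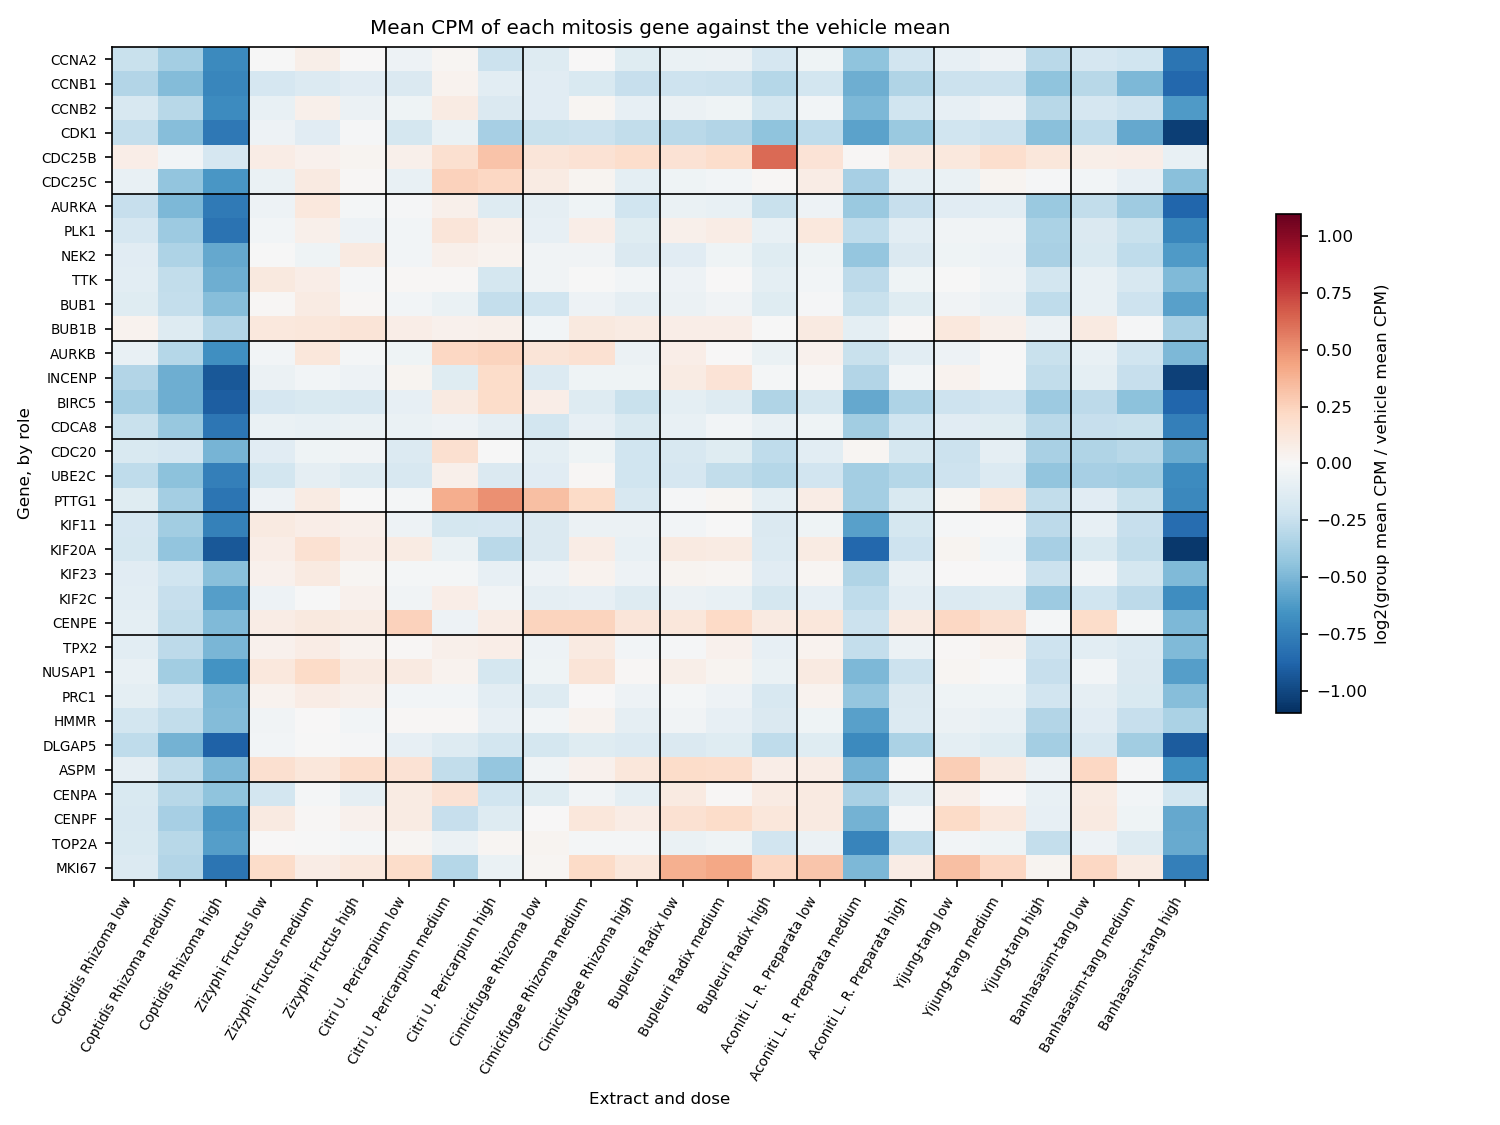
Rows are the 34 mitosis genes in the order of their roles (black lines separate roles and extracts), columns are the 24 treated groups, and the colour is log2(group mean CPM / vehicle mean CPM), blue for lower and red for higher. The high-dose Coptidis Rhizoma, high-dose Banhasasim-tang and medium-dose Aconiti Lateralis Radix Preparata columns are blue in nearly every row, and CDC25B is red with high-dose Bupleuri Radix (0.62).

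At the medium dose of Coptidis Rhizoma 11 of the 34 members fell and none rose, against 1.51% of all genes falling and 1.76% rising, and the median of the members was -0.33. All 34 had both libraries below every vehicle library, as had 24.5% of all genes. Among the members called, the largest falls were those of INCENP (-0.54 ± 0.15), DLGAP5 (-0.52 ± 0.10) and AURKA (-0.49 ± 0.10), with edgeR adjusted p = 0.0295, 0.000996 and 0.00109. All 11 were also among the 30 that fell at the high dose, in a comparison with the same vehicle libraries. After removal of the high-antisense libraries, 26 members fell, against 6.22% of all genes. The count was sensitive to each library: it was 5 without replicate 2 and 1 without replicate 3 of the medium dose, and 6, 5 and 4 without vehicle replicates 1, 2 and 3. At the low dose no member was called by edgeR, and the median was -0.17. An unadjusted edgeR p below 0.05 was found for 8 members, and for 1287 of all 18568 genes. DESeq2 called 1 member, and its share of all genes is not given here. At this low dose 27 of the 34 had both libraries below every vehicle library, against 20.4% of all genes. In a fit lacking the high-antisense libraries, 8 members fell at the low dose, against 1.86% of all genes.

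The high dose of Coptidis Rhizoma was also set against its own low dose, which leaves the vehicle out. In that comparison 20 of the 34 members were lower and none higher, against 1.38% of all genes lower, with a median of -0.47. Every member had both high-dose libraries below both low-dose libraries, as had 31.4% of all genes. Among the members called, the largest differences were those of KIF20A (-0.73 ± 0.19), PLK1 (-0.63 ± 0.15) and INCENP (-0.61 ± 0.16), with edgeR adjusted p = 0.023, 0.0104 and 0.0252. PTTG1 (-0.67 ± 0.27, edgeR adjusted p = 0.256) and MKI67 (-0.66 ± 0.23, 0.152) were not called. With the 4 high-antisense libraries left out, 31 members were lower, against 4.54% of all genes. With any 1 of the 4 Coptidis Rhizoma libraries left out the count fell to between 3 and 5 (3 and 4 without high-dose replicates 2 and 3, 4 and 5 without low-dose replicates 2 and 3).

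Against the high dose of Zizyphi Fructus, the other medicine of the same set, high-dose Coptidis Rhizoma had 29 of the 34 members lower and none higher, against 4.02% of all genes lower. The median difference was -0.65, and no member overlapped between the extracts (32.7% of all genes had both Coptidis Rhizoma libraries below both others). The largest differences among the called members were those of KIF20A (-1.01 ± 0.19), MKI67 (-0.92 ± 0.23) and DLGAP5 (-0.88 ± 0.11), with edgeR adjusted p = 0.000246, 0.00655 and 2.23e-07. KIF20A had 85.0 and 80.7 CPM with high-dose Zizyphi Fructus. The 5 members not called were PTTG1 (-0.80 ± 0.27, edgeR adjusted p = 0.056), ASPM (-0.68 ± 0.28, 0.14), BUB1 (-0.48 ± 0.19, 0.117), CENPA (-0.34 ± 0.18, 0.318) and CDC25B (-0.22 ± 0.11, 0.254). This comparison stays within 1 set and uses no vehicle library. Zizyphi Fructus itself had no member called against vehicle at any dose by edgeR or DESeq2, no member with an unadjusted p below 0.05, and medians of -0.017, 0.059 and 0.0012 at the low, medium and high dose. Over all 18568 genes tested edgeR called 0% at each dose of Zizyphi Fructus. An unadjusted edgeR p below 0.05 was found for 460, 497 and 439 of them, in the same order of doses.

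**Figure D3:**
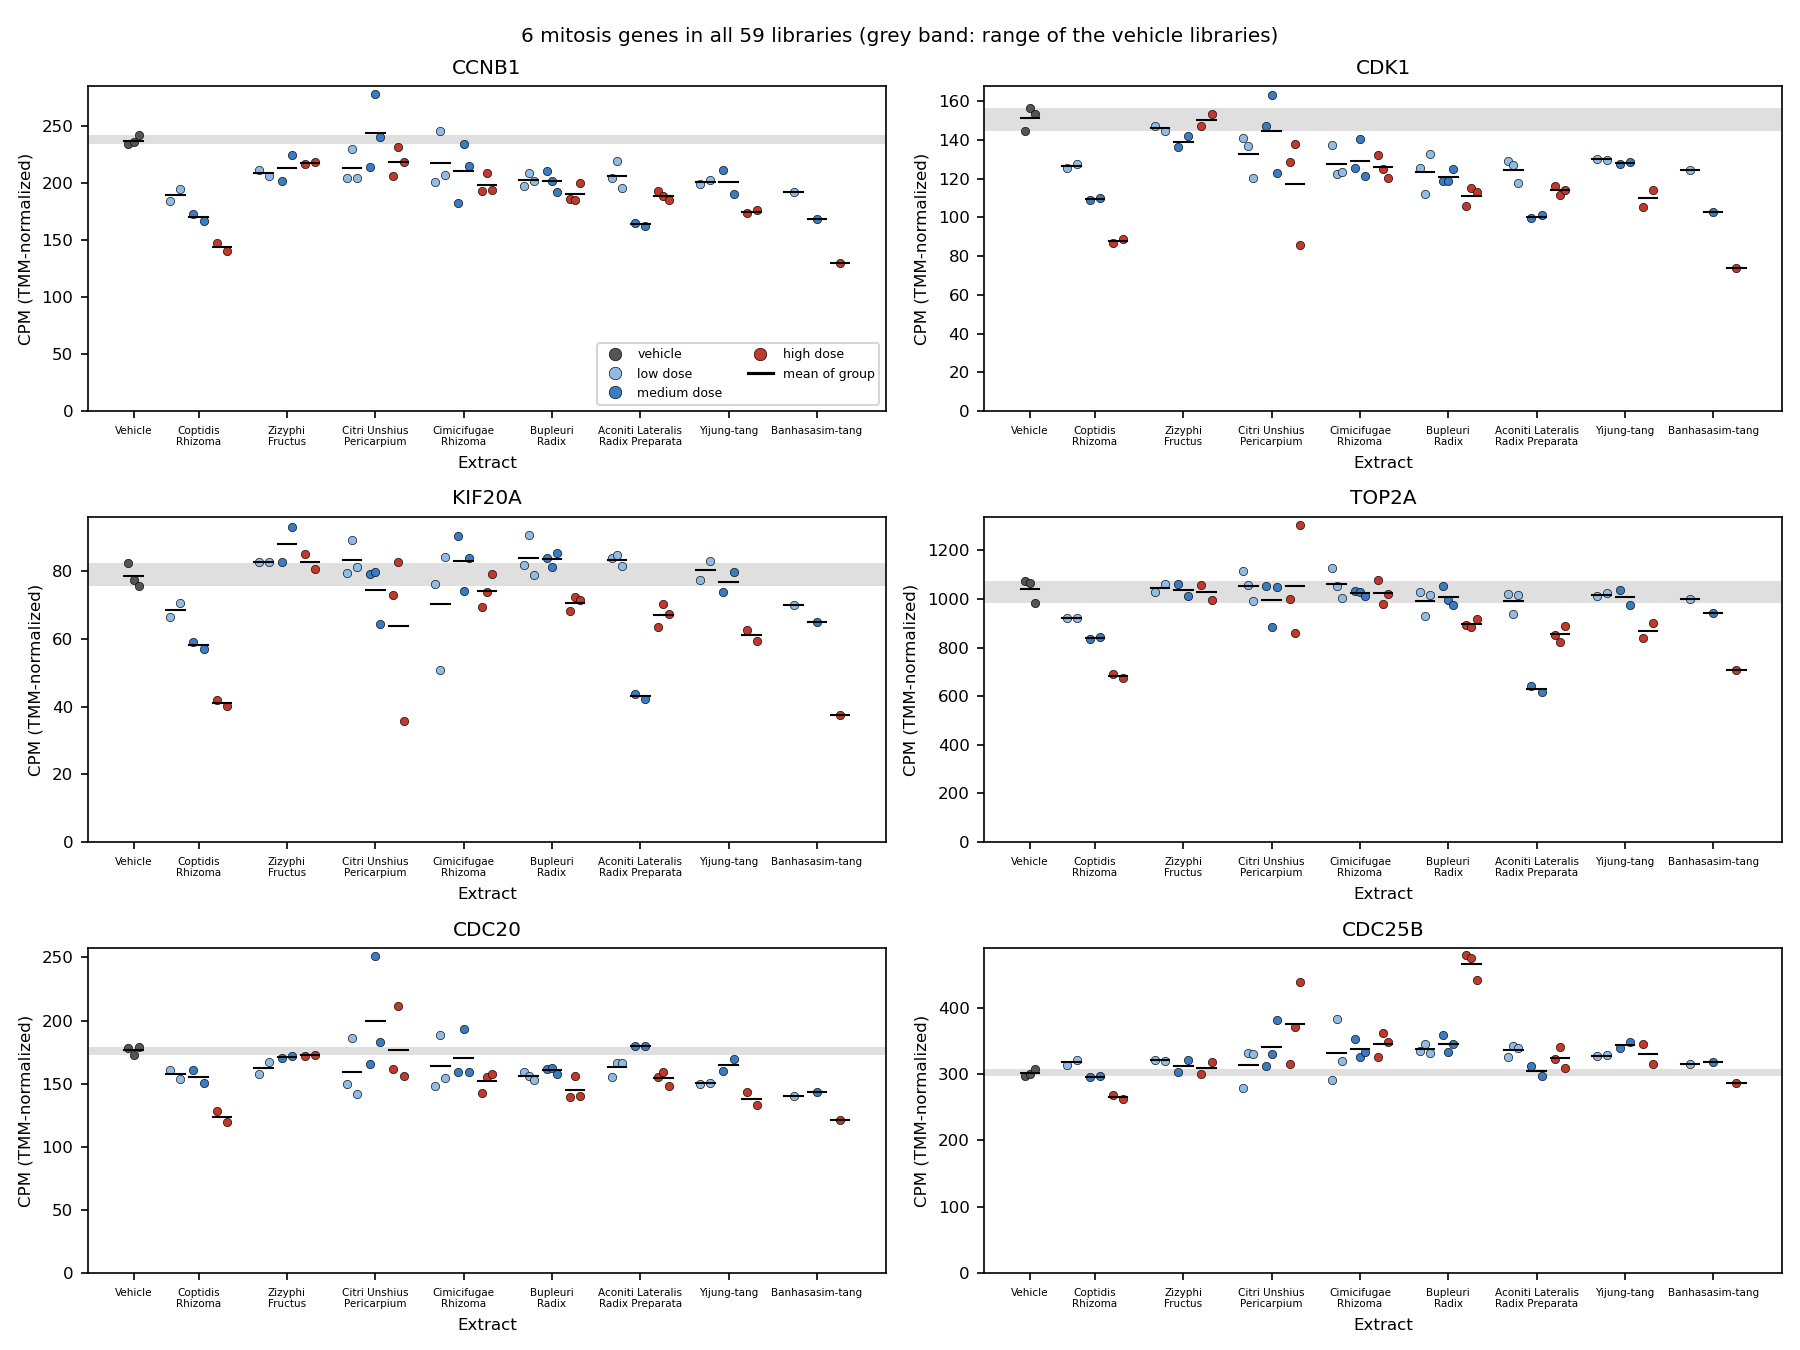
Each panel shows 1 of 6 mitosis genes in all 59 libraries as TMM-normalized CPM on a y axis that starts at 0, by extract on the x axis, with bars at group means and a grey band over the range of the 3 vehicle libraries. CCNB1, CDK1, KIF20A and TOP2A step down with the dose of Coptidis Rhizoma, CDC20 in medium-dose Aconiti Lateralis Radix Preparata lies just above the vehicle band (179.7 and 179.9 CPM), and CDC25B is highest with high-dose Bupleuri Radix (442 to 479 CPM).

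With the medium dose of Aconiti Lateralis Radix Preparata 20 of the 34 members fell and none rose, against 9.28% of all genes falling and 8.23% rising, and the median was -0.39. The members with both libraries below every vehicle library were 32, against 29.4% of all genes. KIF20A had 43.9 and 42.4 CPM, against 82.3, 77.5 and 75.7 CPM with vehicle, and fell by 0.86 ± 0.17 (edgeR adjusted p = 0.000272). TOP2A had 642 and 618 CPM, against 1073, 1065 and 982 CPM with vehicle, and fell by 0.72 ± 0.10 (edgeR adjusted p = 4.08e-07). Its level was the lowest of any group. DLGAP5 had 51.6 and 50.7 CPM and fell by 0.70 ± 0.10 (edgeR adjusted p = 1.18e-06). The members did not all follow. CDC20 had 179.7 and 179.9 CPM, both above the highest vehicle library (178, 172 and 179 CPM), and was not called (log2 fold change 0.025 ± 0.12, edgeR adjusted p = 0.931). CDC25B, at 311 and 297 CPM, overlapped the vehicle. PLK1 at 169 and 161 CPM and INCENP at 67.2 and 71.5 CPM were below the vehicle range and not called (edgeR adjusted p = 0.159 and 0.129). The members called were 28 without the 4 high-antisense libraries, against 16.3% of all genes lower, and 13 without replicate 2 of this group.

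By role, with medium-dose Aconiti Lateralis Radix Preparata the members that fell were 5 of 6 spindle microtubule proteins, 4 of 5 kinesins, and 4 of 6 of the cyclins, CDK1 and CDC25 phosphatases. They were also 2 of 4 centromere and chromosome proteins, 2 of 4 passenger complex members, 2 of 6 mitotic kinases, and 1 of 3 genes around the anaphase-promoting complex (UBE2C). All 20 members were among the 30 that fell with high-dose Coptidis Rhizoma, in a comparison with the same vehicle libraries. Genes of other cell types and of the epithelial identity of A549 also moved in these 2 libraries. CDH1 (E-cadherin) fell by 2.54 ± 0.28, COL1A1 by 2.95 ± 0.31, COL3A1 by 1.70 ± 0.31 and CD14 by 1.89 ± 0.33, and CD68 rose by 2.25 ± 0.40. The summed markers of other cell types were 186 and 197 CPM, and 6 of 9 A549 markers fell. The part of these genes in the result was not tested.

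The high dose of the same medicine (500 µg/mL) had smaller differences from vehicle than the medium dose (100 µg/mL). At the high dose 4 of 34 members fell and none rose, against 2.09% and 2.56% of all genes, with a median of -0.16. These were CDK1 (-0.41 ± 0.10), DLGAP5 (-0.35 ± 0.088), CCNB1 (-0.33 ± 0.081) and TOP2A (-0.28 ± 0.086), with edgeR adjusted p = 0.00881, 0.0133, 0.0109 and 0.0458. In 23 members every library was below every vehicle library, against 19.5% of all genes. Once the high-antisense libraries were omitted, 13 members fell, against 7.74% of all genes. No member was called when the low-count filter was left out. The 4 calls dropped to 2, 0 and 2 without high-dose replicates 1, 2 and 3, and to 2, 1 and 1 without vehicle replicates 1, 2 and 3.

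Medium and high dose of Aconiti Lateralis Radix Preparata were then compared with each other. At the medium dose 8 of 34 members were lower than at the high dose and none was higher, against 4.64% of all genes lower, with a median of -0.23. KIF20A had 43.9 and 42.4 CPM at the medium and 63.5, 70.2 and 67.3 CPM at the high dose (-0.64 ± 0.17, edgeR adjusted p = 0.0149). CENPF had 186 and 199 against 266, 275 and 279.9 CPM (-0.51 ± 0.16, 0.0454), and HMMR had 46.0 and 40.9 against 60.3, 57.9 and 59.2 CPM (-0.44 ± 0.076, 7.99e-05). None of these overlapped between the doses. The other 5 were TOP2A, KIF11, DLGAP5, NEK2 and KIF23. In 30 members both medium-dose libraries were below all 3 high-dose libraries, against 25.9% of all genes. After removal of the high-antisense libraries, 18 members were lower, against 10% of all genes. The count was 2 and 1 without medium-dose replicates 1 and 2, and 4 without high-dose replicate 3. At the low dose of this medicine no member was called by edgeR or DESeq2, and the median was -0.0018. An unadjusted edgeR p below 0.05 was found for 2 members, and for 1214 of all 18568 genes. In 6 members every library was below every vehicle library, against 12.8% of all genes. High against low dose gave no call by edgeR or DESeq2. The unadjusted edgeR p was below 0.05 for 8 members and for 2041 of all genes. The members that did not overlap were 22, all lower at the high dose, against 14.5% of all genes lower. In a fit lacking the high-antisense libraries, 6 members were lower at the high than at the low dose, against 4.67% of all genes.

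With the high dose of Yijung-tang 7 of the 34 members fell and none rose, against 0.587% of all genes falling and 0.781% rising, and the median was -0.28. CDK1 had 105 and 114 CPM, against 145, 156 and 153 CPM with vehicle (-0.46 ± 0.11, edgeR adjusted p = 0.0226). CCNB1 had 174 and 176 CPM, against 234, 236 and 242 CPM (-0.44 ± 0.092, edgeR adjusted p = 0.00523). AURKA had 126 and 129.6 CPM, against 171, 172 and 165 CPM (-0.41 ± 0.10, edgeR adjusted p = 0.0173). All of these libraries lay below the vehicle range. The other members called were KIF2C, DLGAP5, NEK2 and HMMR. All 7 were among the 30 that fell with high-dose Coptidis Rhizoma, again against the same vehicle libraries. The 26 members with both libraries below every vehicle library compare with 23.2% of all genes. MKI67, at 499 and 522 CPM, lay within the vehicle range of 559.8, 508 and 436 CPM. With the 4 high-antisense libraries left out, 23 members fell, against 4.66% of all genes. DESeq2 on all libraries called 11, and its share of all genes is not given here. Without the low-count filter none was called. No member was called without either of the 2 Yijung-tang libraries, and 3, 4 and 3 were called without vehicle replicates 1, 2 and 3. Mitochondrial rRNA was 2.64% and 3.12% in the 2 libraries. The summed markers of other cell types were 176 and 172 CPM, below the vehicle range of 205 to 216 CPM, and their part in the result was not tested.

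Set against its own low dose, the high dose of Yijung-tang had no member called by edgeR. An unadjusted edgeR p below 0.05 was found for 12 members, and for 931 of all 18568 genes. DESeq2 called 2 members, and its share of all genes is not given here. In 32 of 34 members both high-dose libraries lay below both low-dose libraries, against 24.9% of all genes, with a median difference of -0.24. CDC25C was above and CDC25B overlapped. Once the high-antisense libraries were omitted, 9 members were lower, against 0.943% of all genes. The medium and low doses had no member called against vehicle by edgeR or DESeq2, with medians of -0.040 and -0.038. The unadjusted edgeR p was below 0.05 for 2 and 1 members, against 652 and 743 of all genes.

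**Figure D4:**
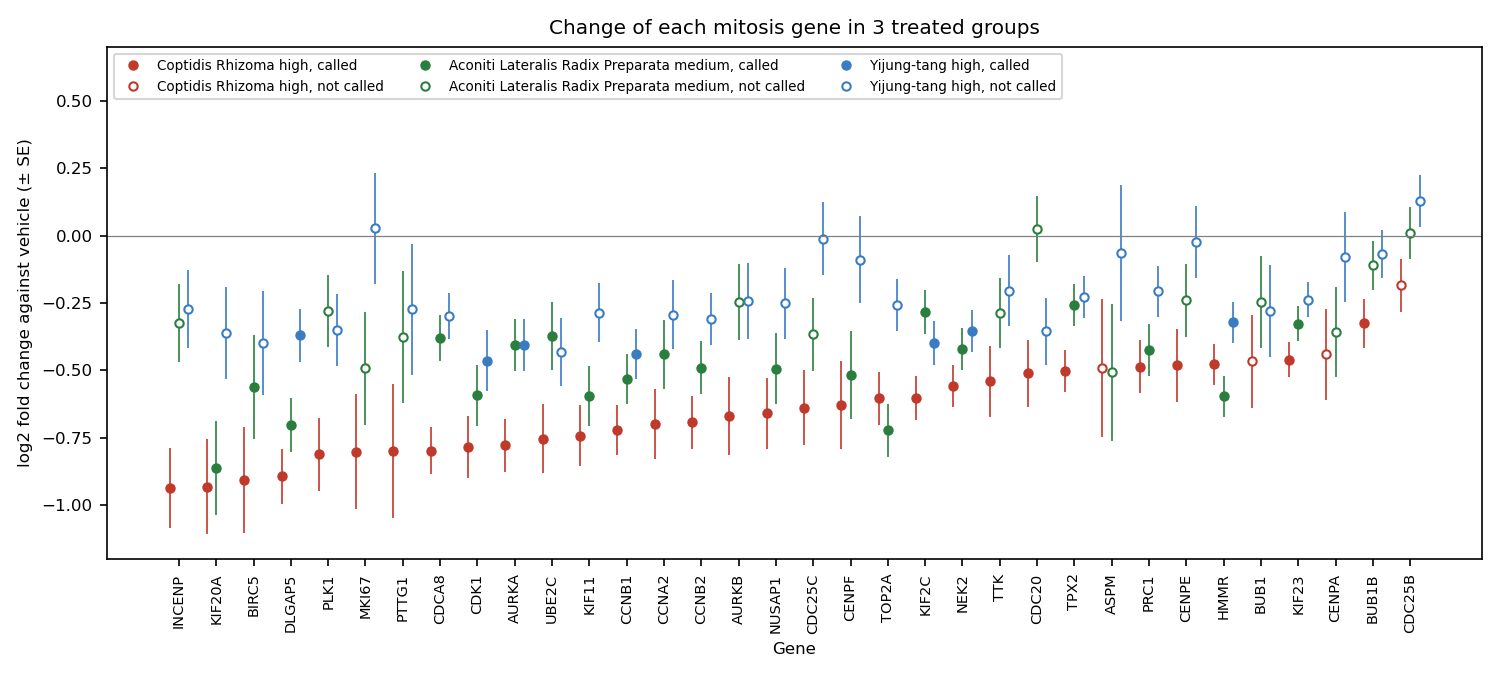
The log2 fold change against vehicle of each of the 34 mitosis genes (y axis, bars are 1 SE from the fit) is shown for high-dose Coptidis Rhizoma (red), medium-dose Aconiti Lateralis Radix Preparata (green) and high-dose Yijung-tang (blue), with genes on the x axis in the order of the red points and filled points for genes called. CDC20 in green stands at 0.025 while its red point stands at -0.51, and TOP2A and HMMR are lower in green than in red. All points share the 3 vehicle libraries.

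Banhasasim-tang had 1 library for each dose, so no test was made. Traditional recipes of this formula include Coptidis Rhizoma, and the labels do not give the composition of the extract used. In the high-dose library 32 of 34 members were below 0.8 of the vehicle mean, against 20.8% of all genes, and the median fold was 0.65. All 34 members were below every vehicle library, as were 37.1% of all genes. KIF20A had 37.7 CPM, a fold of 0.48, and CDK1 had 74.0 CPM. INCENP had 42.7 CPM and CCNB1 had 130.2 CPM. These 4 were among 14 members below both high-dose Coptidis Rhizoma libraries, while 18 members lay above both, TOP2A (709 CPM) and PLK1 (122 CPM) among them, and 2 lay between. CDC25B was nearest to vehicle at 286 CPM, a fold of 0.95. At the medium dose 6 members were below 0.8 of the vehicle mean (12.3% of all genes) and 27 were below every vehicle library (32.1% of all genes), with a median fold of 0.85. At the low dose 2 members were below 0.8 (10% of all genes) and 24 below every vehicle library (30.9%), with a median fold of 0.93. Mitochondrial rRNA was higher at each higher dose (3.87%, 11.5% and 15.2%), the summed markers of other cell types were 148 CPM at the high dose, and their part in these values was not tested.

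Few members were called with the other medicines. CDC25B, the phosphatase that starts CDK1 activation at the centrosome, was the only member that rose in any comparison with vehicle. With high-dose Bupleuri Radix it had 479, 475 and 442 CPM, against 298, 301 and 307 CPM with vehicle, and rose by 0.62 ± 0.087 (edgeR adjusted p = 5.05e-06). All 3 libraries were above those of every other group. CDK1 and CCNB1 fell in the same libraries, by 0.44 ± 0.10 and 0.32 ± 0.082 (edgeR adjusted p = 0.00602 and 0.0187). In this comparison 1.31% of all genes fell and 2.05% rose, and the median of the members was -0.13. Every library was below every vehicle library in 23 members and above in CDC25B, against 19.1% and 18.6% of all genes. CDK1 had 106, 115 and 113 CPM, so that an activator of CDK1 was higher and the kinase and its cyclin were lower in the same 3 libraries. After removal of the high-antisense libraries, 12 members fell, against 7.09% of all genes, and CDC25B still rose. The count of 3 became 1 without high-dose replicate 1.

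CDC25B differed with the dose of Bupleuri Radix. It had 335, 345 and 332 CPM at the low, 359, 333 and 344 CPM at the medium and 479, 475 and 442 CPM at the high dose. The low and medium doses overlapped each other, and the high dose lay above both. High against low gave 0.46 ± 0.087 (edgeR adjusted p = 0.000924), the only member called in that comparison, where 1.02% of all genes were higher. Against high-dose Aconiti Lateralis Radix Preparata, from the same set and with no vehicle library involved, the difference was 0.52 ± 0.087 (edgeR adjusted p = 0.000188). It was again the only member called, with 0.856% of all genes higher. Other fits called more members, CDC25B among them. Without the 4 high-antisense libraries 4 members were called for high against low and 2 against Aconiti Lateralis Radix Preparata. A fit of only the libraries compared called 7 and 3, and DESeq2 called 2 and 1. The shares of all genes in these fits are not given here. CDC25B also lay above every vehicle library, without being called, in most of the other groups, among them all 3 doses of Yijung-tang and the low doses of Coptidis Rhizoma and Zizyphi Fructus. Of all genes, 5.39% were above every vehicle library with medium-dose Citri Unshius Pericarpium and 7.21% with medium-dose Cimicifugae Rhizoma. The shares for most of the other groups are not given here, so this count is not a result about CDC25B. A difference between all sets and the vehicle libraries cannot be told apart from an effect that the extracts share.

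With high-dose Citri Unshius Pericarpium 1 member fell and 1 rose, against 0.905% and 3.52% of all genes. CDK1 had 129, 138 and 85.8 CPM in replicates 1 to 3 and fell by 0.37 ± 0.10 (edgeR adjusted p = 0.0377). CDC25B had 316, 370.3 and 439 CPM and rose by 0.31 ± 0.087 (edgeR adjusted p = 0.0393). In both genes replicate 3, which has the highest antisense share of all libraries, stood furthest from the vehicle. In a fit lacking the high-antisense libraries, neither was called (-0.19 ± 0.066 and 0.18 ± 0.063, edgeR adjusted p = 0.13 and 0.119), and no member was called without any 1 vehicle library. KIF20A had 72.8, 82.6 and 35.8 CPM and TOP2A had 1001, 859 and 1303 CPM in the same libraries, with replicate 3 lowest in the first and highest in the second. Leaving out high-dose replicate 1, 2 or 3 gave 6, 8 and 0 members called. Every library was below every vehicle library in 3 members and above in CDC25B and CDC25C, against 7.48% and 6.81% of all genes.

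PTTG1 was the only member called between high-dose Citri Unshius Pericarpium and high-dose Cimicifugae Rhizoma, and 6.26% of all genes were higher there. It had 101, 144 and 244 CPM with the former and 89.5, 105 and 111 CPM with the latter (0.68 ± 0.22, edgeR adjusted p = 0.0476). The groups overlapped, and the highest value came from the library of high antisense share. Once the high-antisense libraries were omitted, the difference was 0.27 ± 0.13 and was not called (edgeR adjusted p = 0.25). The count was 0 without Citri Unshius Pericarpium replicate 3 or any 1 Cimicifugae Rhizoma replicate, and 6 and 5 without Citri Unshius Pericarpium replicates 1 and 2. Cimicifugae Rhizoma had no member called against vehicle at any dose by edgeR or DESeq2. The unadjusted edgeR p was below 0.05 for 6, 3 and 4 members at the high, medium and low dose. The numbers over all 18568 genes were 1365, 1261 and 1263. At the high dose of Cimicifugae Rhizoma 18 members were below every vehicle library, against 13% of all genes, and CDC25B and CENPE were above. The share of all genes above is not given here. With the 4 high-antisense libraries left out, 3 members were lower and 1 higher at the high dose, against 2.15% of all genes lower.

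The medium doses of these medicines had no member called by edgeR or DESeq2 in the fits of all libraries. The unadjusted edgeR p was below 0.05 for 5 members with Bupleuri Radix, 3 with Cimicifugae Rhizoma and 2 with Citri Unshius Pericarpium. The numbers over all 18568 genes were 1320, 1261 and 2565, in the same order. Some members were called with Bupleuri Radix and Cimicifugae Rhizoma once the high-antisense libraries were left out, as given further on. Over all genes edgeR called 0.0108% lower and 0.0162% higher with Cimicifugae Rhizoma and 0.00539% lower with Bupleuri Radix. With medium-dose Citri Unshius Pericarpium no member was below every vehicle library (5.06% of all genes) and CDC25B was above (5.39%). With medium-dose Cimicifugae Rhizoma 3 members were below (8.01%), and CDC25B, AURKB, CENPE and NUSAP1 were above (7.21%).

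The regulators described first were also measured in the other groups of the high dose. Every library was below every vehicle library in 19.5% of all genes with Aconiti Lateralis Radix Preparata and 19.1% with Bupleuri Radix. The shares were 13% with Cimicifugae Rhizoma, 7.48% with Citri Unshius Pericarpium, 23.2% with Yijung-tang and 37.1% with Banhasasim-tang. That of Zizyphi Fructus is not given here. Genes below the vehicle range, here and in the next paragraphs, are read beside these shares. CCNB1 had 193, 189 and 185 CPM with Aconiti Lateralis Radix Preparata, 186, 185 and 199.9 with Bupleuri Radix, 193, 209 and 194 with Cimicifugae Rhizoma, 206, 231 and 219 with Citri Unshius Pericarpium, and 217 and 219 with Zizyphi Fructus. All of these libraries lay below the lowest vehicle library (234 CPM), also with Zizyphi Fructus, where no gene was called. CDK1 had 116, 111 and 114 CPM with Aconiti Lateralis Radix Preparata, 132, 125 and 120.3 with Cimicifugae Rhizoma, and 147 and 153 with Zizyphi Fructus. Only the last of these overlapped the vehicle.

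The kinases AURKA, PLK1 and BUB1 are given at the high dose of the other extracts, beside the shares of all genes given for CCNB1 and CDK1. AURKA had 141, 145 and 141 CPM with Aconiti Lateralis Radix Preparata, 141, 147 and 142 with Bupleuri Radix, 143, 146 and 148 with Cimicifugae Rhizoma, 167, 175 and 119 with Citri Unshius Pericarpium, 166 and 169 with Zizyphi Fructus, and 92.9 with Banhasasim-tang. The first 3 of these groups and the Banhasasim-tang library, which has no test, were below the vehicle range, and no group tested here was called. PLK1 had 184, 194 and 177 CPM with Aconiti Lateralis Radix Preparata, 188, 205 and 176 with Bupleuri Radix, 168, 189 and 191 with Cimicifugae Rhizoma, 193, 273 and 158 with Citri Unshius Pericarpium, 192 and 195 with Zizyphi Fructus, 163 and 152 with Yijung-tang, and 122 with Banhasasim-tang. BUB1 had 109.6, 111 and 109 CPM with Aconiti Lateralis Radix Preparata, 105, 114 and 110.5 with Bupleuri Radix, 116, 108 and 114 with Cimicifugae Rhizoma, 112, 128 and 60.6 with Citri Unshius Pericarpium, 124 and 119 with Zizyphi Fructus, 96.2 and 103 with Yijung-tang, and 79.9 with Banhasasim-tang. Neither gene was called with any of the extracts tested. PLK1 overlapped the vehicle with Bupleuri Radix and Citri Unshius Pericarpium, and BUB1 with Citri Unshius Pericarpium and Zizyphi Fructus.

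The activator and the E2 enzyme of the anaphase-promoting complex were below the vehicle range in most of these groups. The shares of all genes given for CCNB1 and CDK1 apply here too. CDC20 had 155, 159 and 148 CPM with Aconiti Lateralis Radix Preparata, 139.7, 156 and 140.3 with Bupleuri Radix, 143, 155 and 158 with Cimicifugae Rhizoma, 162, 212 and 156 with Citri Unshius Pericarpium, 172 and 173 with Zizyphi Fructus, 143 and 133 with Yijung-tang, and 121 with Banhasasim-tang. UBE2C had 74.9, 80.1 and 70.8 CPM with Aconiti Lateralis Radix Preparata, 73.8, 74.7 and 77.6 with Bupleuri Radix, 74.3, 83.3 and 82.5 with Cimicifugae Rhizoma, 79.2, 101 and 71.4 with Citri Unshius Pericarpium, 78.8 and 90.3 with Zizyphi Fructus, 72.0 and 66.6 with Yijung-tang, and 57.8 with Banhasasim-tang. CDC20 overlapped the vehicle with Citri Unshius Pericarpium and Zizyphi Fructus, and UBE2C with Citri Unshius Pericarpium, and neither was called.

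The motors of the central spindle were below the vehicle range with 4 of these extracts or more, beside the same shares of all genes. KIF20A had 68.2, 72.4 and 71.6 CPM with Bupleuri Radix, 69.3, 73.8 and 79.1 with Cimicifugae Rhizoma, and 62.7 and 59.5 with Yijung-tang. KIF23 had 156, 162 and 155 CPM with Aconiti Lateralis Radix Preparata, 151, 155 and 152 with Bupleuri Radix, 161, 157 and 162 with Cimicifugae Rhizoma, 164, 158 and 146 with Citri Unshius Pericarpium, 171 and 168 with Zizyphi Fructus, 141 and 142 with Yijung-tang, and 119 with Banhasasim-tang. KIF20A overlapped the vehicle with Cimicifugae Rhizoma, where KIF23 did not. TPX2 had 253, 265 and 247 CPM with Aconiti Lateralis Radix Preparata, 239.6, 258 and 251 with Bupleuri Radix, 257, 257 and 267 with Cimicifugae Rhizoma, 268, 299 and 272 with Citri Unshius Pericarpium, 275 and 270.2 with Zizyphi Fructus, 228 and 226 with Yijung-tang, and 191 with Banhasasim-tang. TPX2 was below the vehicle range with Bupleuri Radix, Yijung-tang and Banhasasim-tang.

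Among the chromosome proteins TOP2A was the one called, with Aconiti Lateralis Radix Preparata. TOP2A had 853, 822 and 888 CPM with Aconiti Lateralis Radix Preparata, 893, 885 and 919 with Bupleuri Radix, 1079, 979 and 1019 with Cimicifugae Rhizoma, 1058 and 997 with Zizyphi Fructus, 839 and 901 with Yijung-tang, and 709 with Banhasasim-tang. MKI67 had 488, 551 and 554 CPM with Aconiti Lateralis Radix Preparata, 596, 615 and 546 with Bupleuri Radix, 529, 523 and 584 with Cimicifugae Rhizoma, 500.4, 456 and 476 with Citri Unshius Pericarpium, 598 and 488 with Zizyphi Fructus, 499 and 522 with Yijung-tang, and 298 with Banhasasim-tang. CENPF had 266, 275 and 279.9 CPM with Aconiti Lateralis Radix Preparata, 297, 304 and 298 with Bupleuri Radix, 302, 272 and 302 with Cimicifugae Rhizoma, 274, 206 and 268 with Citri Unshius Pericarpium, 309.8 and 258 with Zizyphi Fructus, 249.9 and 268 with Yijung-tang, and 186 with Banhasasim-tang. Of these 7 extracts Banhasasim-tang was the only one with MKI67 and CENPF below the vehicle range, with 1 library and no test.

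Over the 21 comparisons with vehicle CDK1 was called lower in 7, CCNB1 in 6 and DLGAP5 in 5. BUB1, ASPM, CENPA and CDC25B were called lower in none, and CDC25B was called higher in 2. All 21 comparisons share the vehicle libraries. Comparisons that share no library were set side by side over the 34 members. The differences between high-dose Coptidis Rhizoma and Zizyphi Fructus had a Pearson r of 0.61 (Spearman rho 0.62) with those between high-dose and low-dose Yijung-tang, 0.45 (0.49) with high against low dose of Aconiti Lateralis Radix Preparata, and 0.47 (0.37) with its medium against high dose. These values are a description across 34 genes that are not independent of each other and share the level at which each gene is counted.

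Genes outside the 34 that work in the same pathway were counted by role. With high-dose Coptidis Rhizoma 9 of 15 other kinetochore and checkpoint genes fell, 10 of 12 genes for condensin, cohesin control and separase, 12 of 15 other mitotic kinesins and cytokinesis genes, and 6 of 13 other G2/M control genes, against 6.14% of all genes. Examples are SPC25 of the outer kinetochore, which fell by 1.11 ± 0.12, SGO2, a protector of cohesin, which fell by 0.83 ± 0.092, SPAG5, a spindle protein (0.83 ± 0.074 lower), and GTSE1 (0.89 ± 0.14 lower). SPC25 had 19.8, 20.8 and 21.7 CPM with vehicle and 10.1 and 9.13 CPM at the high dose. None of 14 subunits of the anaphase-promoting complex was called, and their median was -0.050, against -0.0067 for all genes. CDC20 and UBE2C, which serve the same complex, and PTTG1, which it marks for destruction, fell. The difference between these lists was not tested. With medium-dose Aconiti Lateralis Radix Preparata the counts lower were 6 of 15, 6 of 12, 6 of 15 and 4 of 13 in the same lists, against 9.28% of all genes, and 1 of 14 anaphase-promoting complex subunits (ANAPC7, -0.23 ± 0.074). The largest fall in its kinetochore list was that of SPC24 (1.26 ± 0.23 lower), from 18.4, 19.9 and 19.5 CPM with vehicle to 8.14 and 7.92 CPM. With high-dose Yijung-tang 3 of 12 condensin and cohesin genes fell (SMC4, NCAPG and SGO2) and none in the other 3 lists, against 0.587% of all genes.

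Some of the transcription factors that act on these promoters were called. With high-dose Coptidis Rhizoma 3 of 14 genes for transcriptional control fell, against 6.14% of all genes. FOXM1 had 224, 217 and 223 CPM with vehicle and 159 and 158 CPM at the high dose (-0.48 ± 0.085, edgeR adjusted p = 6.05e-05). MYBL2 (B-MYB) had 163, 153 and 162 CPM with vehicle and 108 and 105 CPM (-0.58 ± 0.12, edgeR adjusted p = 0.000917). The third was TFDP1, a partner of E2F factors (-0.32 ± 0.068). The NF-Y subunits and the MuvB subunits LIN9, LIN37, LIN52 and LIN54 were not called. CDKN1A (p21) had 111, 107 and 115 CPM with vehicle, 120.2 and 116 at the low, 138 and 130.2 at the medium and 168 and 162 at the high dose, above the vehicle at every dose and called at the high dose. With medium-dose Aconiti Lateralis Radix Preparata FOXM1 fell by 0.31 ± 0.084 and MYBL2 by 0.34 ± 0.12 (edgeR adjusted p = 0.00625 and 0.0489), and CDKN1A was at 115 and 109 CPM and not called (0.017 ± 0.11, edgeR adjusted p = 0.951). With high-dose Yijung-tang none of FOXM1 (-0.07 ± 0.083), MYBL2 (-0.21 ± 0.12) and CDKN1A (-0.11 ± 0.11) was called. Members with both promoter motifs had a median of -0.66 with high-dose Coptidis Rhizoma (17 genes, -0.94 to -0.44), and the other 12 with a promoter sequence had -0.62 (-0.93 to -0.19), so the ranges overlapped widely. CDC25B, with neither motif in the stretch shown, was the member nearest to 0, and KIF2C, CDC25C and CENPE, which also lacked the CHR letters and a CCAAT box, fell by 0.60, 0.64 and 0.48.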

How the data were processed

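RNA-seq of A549 cells gave paired reads of 100 bp. Per the submitters' processing notes, the authors' tools were RSEM 1.3.3, STAR 2.7.3a, Trim Galore 0.6.5 and FastQC 0.11.9, and the build was hg38/GRCh38. No source used here names the annotation release. Each deposited value is an unnormalized expected count of a gene, estimated by the authors. They were rounded to whole numbers, and 210 columns of other samples were not used.

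Genes were kept by edgeR's filterByExpr (minimum count 10, total 15). One model of 25 group means over 59 libraries (34 residual degrees of freedom) was fitted with TMM scaling and edgeR's quasi-likelihood test (R 4.3.3, edgeR 4.0.16, limma 3.58.1). The p-values were adjusted by Benjamini-Hochberg over 18568 genes in each of 35 comparisons, and a gene was called at an adjusted p below 0.05. Errors of log2 fold changes are standard errors from the fit. CPM are TMM-normalized. The code was tested on simulated data. Alternatives were DESeq2 1.42.0, other size factors, no filter, a fit of only the libraries compared, a replicate block, and leaving out libraries.

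The members and lists were chosen with earlier results of these data known. Genes are named by a fixed rule: a panel of 13 regulators, up to 3 of the largest rises and falls among called members in a comparison, members not called where at most 5 were not, up to 3 called genes of each other list, and CDKN1A, FOXM1, MYBL2 and CCND1. Other members are named to account for each role. Same-numbered libraries deviated together (r over 0.1 for every pair) only between high and low dose of Citri Unshius Pericarpium (0.122 to 0.235). The main model does not use this pairing, and the replicate block did not change the count for that comparison.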

Additional observations from a re-analysis of the deposited data

Results flagged for a closer look

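The change from low to high dose differed between extracts of the same set for 5 members, by the test of that difference in edgeR. NEK2, a kinase of centrosome separation, changed by -0.54 ± 0.12 more with Coptidis Rhizoma than with Zizyphi Fructus (edgeR adjusted p = 0.0296). CDCA8 (borealin) changed by -0.55 ± 0.13 more (edgeR adjusted p = 0.0476), and KIF2C, a microtubule depolymerase, by -0.58 ± 0.12 more (edgeR adjusted p = 0.0216). In this test 0.232% of all genes were lower. With the replicate block CDCA8 was not called (edgeR adjusted p = 0.0533), and the other two were. None of the 3 was called when any 1 of the 8 libraries was left out, and 20 members were called without the 4 high-antisense libraries (1.5% of all genes lower).

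PTTG1 (securin) changed by 1.02 ± 0.31 more with Citri Unshius Pericarpium than with Cimicifugae Rhizoma (edgeR adjusted p = 0.0414, with 6.29% of all genes higher). With the 4 high-antisense libraries left out, the difference was 0.16 (edgeR adjusted p = 0.917). CDC25B changed by 0.51 ± 0.12 more with Bupleuri Radix than with Aconiti Lateralis Radix Preparata (edgeR adjusted p = 0.0492, with 0.226% of all genes higher), and was not called when any 1 of the 12 libraries was left out.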

How the results depend on the processing

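Values are numbers of members called. Except where given further up, the shares of all genes called in the same fits are not set beside them. A larger number can go with more calls over all genes, so these numbers are not results about the members. Leaving out 1 library at a time gave 23 to 29 for high-dose Coptidis Rhizoma against vehicle, 1 to 6 for its medium dose, 3 to 5 for high against low, 20 to 25 against Zizyphi Fructus and 0 for the dose effects compared. It gave 13 to 18, 0 to 2 and 1 to 6 for Aconiti Lateralis Radix Preparata (medium, high, medium against high), 0 to 4 for high-dose Yijung-tang and 1 to 3 for high-dose Bupleuri Radix. For Bupleuri Radix high against low and against Aconiti Lateralis Radix Preparata it gave 1, and for their dose effects compared 0. For Citri Unshius Pericarpium it gave 0 to 8 (high), 0 to 1 (medium), 0 to 6 (high against low), 0 to 6 (against Cimicifugae Rhizoma) and 0 to 7 (dose effects compared); all other comparisons stayed at 0.

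After removal of the high-antisense libraries, the numbers for Coptidis Rhizoma were 26 (medium), 8 (low), 31 (high against low) and 20 (dose effect against Zizyphi Fructus). For Aconiti Lateralis Radix Preparata they were 13 (high), 1 (low), 6 (high against low) and 18 (medium against high), and for Yijung-tang 23 (high) and 9 (high against low). For Bupleuri Radix they were 13 (high), 3 (medium), 1 (low), 4 (high against low) and 2 (against Aconiti Lateralis Radix Preparata). For Cimicifugae Rhizoma they were 4 (high) and 4 (medium), and for Citri Unshius Pericarpium 0 (high), 1 (high against low) and 0 (dose effects compared). A fit of only the libraries of the extracts compared gave 33 (medium), 20 (low), 34 (high against low) and 31 (dose effects) for Coptidis Rhizoma. It gave 18 (high), 31 (medium), 4 (low), 11 (high against low) and 27 (medium against high) for Aconiti Lateralis Radix Preparata, and 27 (high), 3 (medium), 6 (low) and 18 (high against low) for Yijung-tang. It gave 19 (high), 7 (medium), 7 (low), 7 (high against low) and 3 (against Aconiti Lateralis Radix Preparata) for Bupleuri Radix, and 0 for Citri Unshius Pericarpium (high, against Cimicifugae Rhizoma, and dose effects).

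With no low-count filter the numbers were 3 (medium), 7 (high against low) and 0 (dose effects) for Coptidis Rhizoma, 0 (high) and 4 (medium against high) for Aconiti Lateralis Radix Preparata, and 0 for high-dose Yijung-tang and for the Bupleuri Radix dose effect. They were 1 for Cimicifugae Rhizoma high against low, and 3 (against Cimicifugae Rhizoma), 2 (high against low) and 3 (dose effects) for Citri Unshius Pericarpium. DESeq2 gave 1 (low) and 6 (dose effects) for Coptidis Rhizoma, 11 (high) and 2 (high against low) for Yijung-tang, 5 (high) and 2 (high against low) for Bupleuri Radix, and 2 (against Cimicifugae Rhizoma), 1 (high against low) and 3 (dose effects) for Citri Unshius Pericarpium. DESeq2's size factors in edgeR gave 0 for the Bupleuri Radix dose effect. The replicate block gave 2 for the Citri Unshius Pericarpium dose effect and 31 for high-dose Coptidis Rhizoma, and moved no other number by over 1.5 times; 3 members were again called for the Coptidis Rhizoma dose effect, 2 of them shared, with CDCA8 lost; apart from the one comparison given above, the libraries share only a number. The causes of these differences were not tested.

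For named genes, 352 values kept their direction and side of the threshold, 137 were no longer called, 11 became called and 1 changed sign: CDC25B with medium-dose Aconiti Lateralis Radix Preparata, not called, at -0.015 without medium-dose replicate 1 (edgeR adjusted p = 0.972) and 0.055 without replicate 2. With 2 or 3 libraries in most groups, single calls rest on few libraries.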

Other observations

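Most of 12 listed genes of G1 phase and inhibitors of cyclin-dependent kinases were not called in 3 of the groups described above. With high-dose Coptidis Rhizoma and with medium-dose Aconiti Lateralis Radix Preparata 2 of them fell, 1 rose and 9 were not called. With high-dose Yijung-tang 2 fell and 10 were not called. Of all genes 6.14%, 9.28% and 0.587% fell, and 6.41%, 8.23% and 0.781% rose, in the same order of groups. CCND3 (cyclin D3) had 243, 238 and 256 CPM with vehicle, 94.0 and 98.7 CPM with high-dose Coptidis Rhizoma, 112 and 109 CPM with medium-dose Aconiti Lateralis Radix Preparata and 154 and 144 CPM with high-dose Yijung-tang. It fell by 1.35 ± 0.10, 1.15 ± 0.094 and 0.72 ± 0.093 on the log2 scale (edgeR adjusted p = 1.64e-13, 5.71e-12 and 1.68e-06). CDKN2C (p18), an inhibitor of CDK4 and CDK6, fell in the same groups by 1.25 ± 0.12, 2.00 ± 0.13 and 0.48 ± 0.12. CCND1 (cyclin D1) was not called with high-dose Coptidis Rhizoma (0.01 ± 0.10) and rose with medium-dose Aconiti Lateralis Radix Preparata (0.34 ± 0.095). Of 18 genes for replication licensing and forks 15 fell with high-dose Coptidis Rhizoma, 5 with medium-dose Aconiti Lateralis Radix Preparata and 2 with high-dose Yijung-tang, against the same shares of all genes (6.14%, 9.28% and 0.587%). These comparisons share the vehicle libraries.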
